A study of Mus musculus with 21 samples.

Results

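The genes described here encode the enzymes that methylate lysine 4 of histone H3 (H3K4) and the subunits that these enzymes share: Kmt2a, Kmt2b, Kmt2c, Kmt2d, Setd1a, Setd1b, Wdr5, Rbbp5, Ash2l and Dpy30. All 10 were found among 21900 protein-coding genes with a RefSeq position in the mouse build GRCm38, and each was scored for peaks within 1 kb of its gene span. The data are CUT&RUN peak lists from C2C12, an established mouse myoblast line, for PSME3, a nuclear activator of the proteasome, and for H3K4me3, the trimethylated form of the lysine. CUT&RUN cuts and releases the DNA beneath an antibody, so a peak is a stretch where the antibody recovered more DNA than the local background. Of 21 libraries, 14 were analysed: cycling cells gave 3 replicates per antibody, and 4 preparations made 48 h after differentiation began, called day 2, gave 1 PSME3 and 1 H3K4me3 library apiece. The 7 IgG libraries were not analysed here, and the sources used here do not say whether they served as the control in peak calling.

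Cycling cells were grown in 20% FBS and frozen, unfixed, in 10% DMSO before the assay. Day 2 cells were grown to confluence and switched to 2% horse serum, and the 4 preparations were fresh native, frozen native, fresh cross-linked and frozen cross-linked, where cross-linking means 5 min in 0.1% formaldehyde. The labels name no genetic change in any of these groups, and only the frozen native preparation at day 2 was handled as the cycling cells were. By the study's account the cycling replicates were biological replicates, and each day 2 preparation was a single library per antibody. The lists gave no read numbers, so the depth was unknown and a list with few peaks cannot be told apart from a shallow one. The PSME3 lists held 1200, 776 and 3070 peaks in cycling replicates 1, 2 and 3, and between 18 and 186 peaks at day 2. The H3K4me3 lists held between 14372 and 40999 peaks. Replicate 2 of H3K4me3 stood apart, with 40999 peaks of a median width of 662 bp, while the other cycling replicates had 18077 and 19365 peaks with median widths of 1781 and 1784 bp. The authors' pooled list of cycling cells held 5812 PSME3 peaks, and their pooled H3K4me3 list held 23663. H3K4me3 peaks lay at 5 of 5 myoblast markers in the pooled list, and at 2 of 4 markers of differentiating muscle there. Myog, a regulator of muscle differentiation, and Myh3, an embryonic myosin heavy chain, had none in the cycling lists, while Mymk and Ckm had pooled peaks of 2.57-fold and 2.28-fold. All 4 of these markers had peaks in all 4 day 2 lists. Of 5 markers of other cell types, 2 had a pooled H3K4me3 peak, Cd68 at 6.04-fold and Pecam1 at 2.99-fold. Ptprc and Epcam, markers of blood and epithelial cells, had none in any of the lists, and Sox10 had 1 in 1 cycling and 1 day 2 list and a pooled PSME3 peak of 2.61-fold.

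H3K4 is methylated by SET-domain enzymes that work in large complexes. Setd1a and Setd1b are known for much of the trimethylation found at active promoters, Kmt2a and Kmt2b for trimethylation at selected genes such as developmental regulators, and Kmt2c and Kmt2d for monomethylation at enhancers. Each enzyme is held by a common core of Wdr5, Rbbp5, Ash2l and Dpy30, which raises its activity. H3K4me3 itself marks the promoters of active genes, and in muscle precursors Kmt2d and Ash2l are known for roles at differentiation genes.

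H3K4me3 covered these genes in every library, and PSME3 was listed beside some of them in cycling cells and beside none at day 2. All 10 genes had an H3K4me3 peak in each of the 7 libraries and in the pooled list, a property shared by 53.2% of protein-coding genes. PSME3 peaks lay beside 5 of the 10 in the pooled cycling list: Kmt2a, Kmt2b, Kmt2d, Ash2l and Dpy30. The share among all protein-coding genes was 21.9%, and among the 11642 genes with H3K4me3 in all 7 libraries it was 39.5%, so the count of 5 of 10 was close to that of other genes that carry the mark. In replicate 1, 0 of the 10 had a PSME3 peak, against 4.56% of genes. In replicate 2 there were 2, Kmt2a and Kmt2d, against 3.6% of genes. In replicate 3 there were 5, namely Kmt2a, Kmt2b, Kmt2c, Kmt2d and Dpy30, against 13.4% of genes. Of 1994 genes with a PSME3 peak in replicate 3 alone, 1948 had H3K4me3 in all 7 libraries. The replicate 3 share is therefore higher among genes that carry the mark, for which shares by replicate were not computed. The genes without a PSME3 peak in any list were Setd1a, Setd1b, Wdr5 and Rbbp5.

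**Figure D1:**
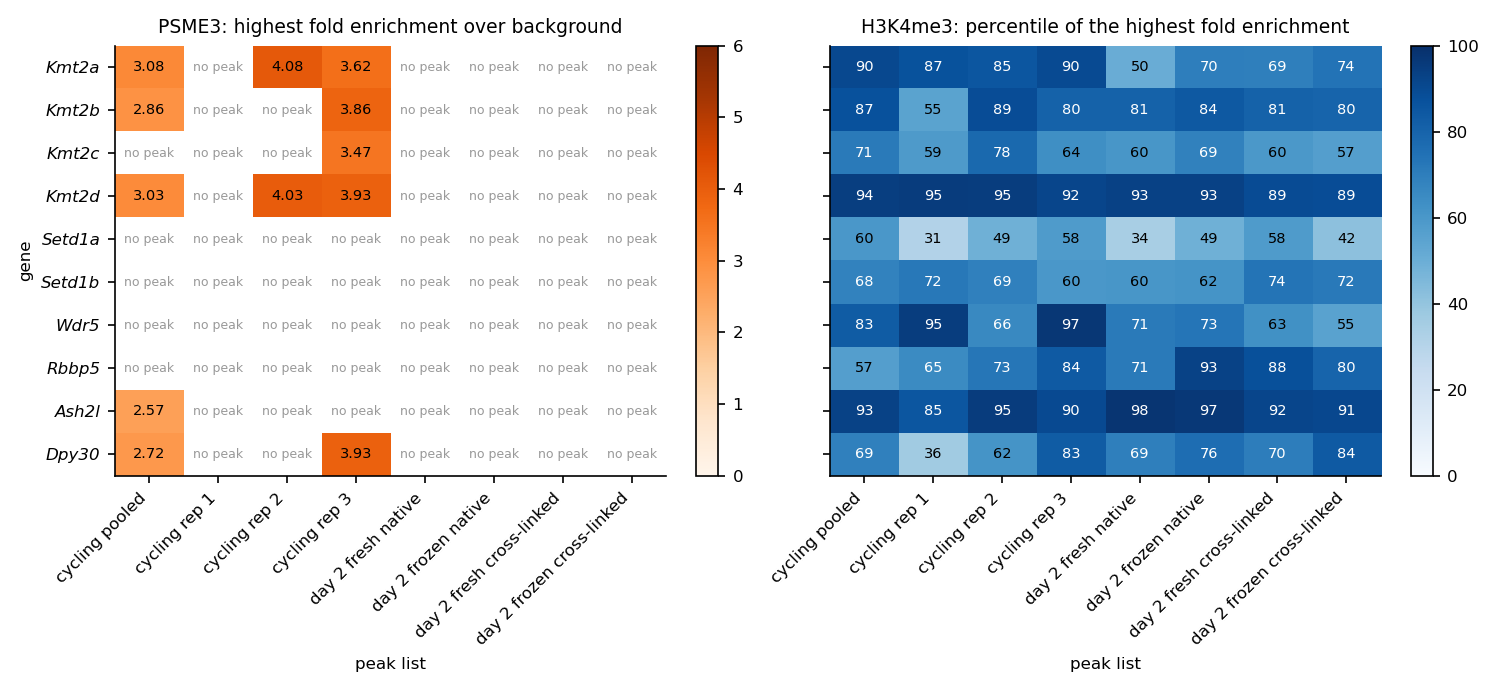
The left panel gives the highest PSME3 fold enrichment over background within 1 kb of each gene in each of 8 peak lists, and the right panel gives the percentile of its highest H3K4me3 fold enrichment among the protein-coding genes with a peak in that list. PSME3 values between 2.57 and 4.08 appear in the pooled list and in replicates 2 and 3 of cycling cells, with no peak at day 2, while every H3K4me3 cell is filled.

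H3K4me3 lists covered 58.8% to 63.6% of protein-coding genes in the 3 cycling replicates, and PSME3 lists 3.6% to 13.4%. Across these replicates, a PSME3 peak was found at 2.33 ± 2.52 genes (SD, n = 3) and an H3K4me3 peak at 10.0 ± 0.0 (SD, n = 3). The difference of 7.67 genes reached an exact two-sided permutation p of 0.1, which is the smallest that 3 against 3 libraries allow. Every H3K4me3 replicate lay above every PSME3 replicate, as the far longer H3K4me3 lists did over all genes, so the difference does not mark out these genes. With the replicate number as a block, an exact sign-flip test gave p = 0.25, the smallest that 3 pairs allow.

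The promoter sequences of 4 genes are shown because they place the PSME3 peak on the DNA: those of Kmt2a and Dpy30, whose pooled PSME3 peak reached into the promoter, and those of Wdr5 and Rbbp5, which carried H3K4me3 there with no PSME3 peak nearby. Each run is the 250 bases before an annotated start, 5′ to 3′ on the gene's strand, from RefSeq on GRCm38.p6. Capitals mark the bases inside the pooled PSME3 peak, and lower case the rest.
Kmt2a, chr9:44881290-44881539, minus strand: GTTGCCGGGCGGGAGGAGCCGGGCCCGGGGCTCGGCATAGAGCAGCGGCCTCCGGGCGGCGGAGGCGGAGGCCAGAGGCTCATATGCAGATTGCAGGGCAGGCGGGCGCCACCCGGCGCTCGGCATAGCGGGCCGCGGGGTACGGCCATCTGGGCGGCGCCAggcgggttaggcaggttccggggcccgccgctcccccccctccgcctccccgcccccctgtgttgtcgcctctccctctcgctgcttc
Dpy30, chr17:74316395-74316644, minus strand: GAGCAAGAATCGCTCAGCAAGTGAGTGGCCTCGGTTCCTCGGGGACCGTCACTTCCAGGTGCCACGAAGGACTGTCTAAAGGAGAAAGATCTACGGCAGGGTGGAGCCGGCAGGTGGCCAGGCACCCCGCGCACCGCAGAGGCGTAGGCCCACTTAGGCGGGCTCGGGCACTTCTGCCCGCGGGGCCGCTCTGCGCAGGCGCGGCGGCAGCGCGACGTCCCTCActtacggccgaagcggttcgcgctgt
Wdr5, chr2:27514897-27515146, plus strand: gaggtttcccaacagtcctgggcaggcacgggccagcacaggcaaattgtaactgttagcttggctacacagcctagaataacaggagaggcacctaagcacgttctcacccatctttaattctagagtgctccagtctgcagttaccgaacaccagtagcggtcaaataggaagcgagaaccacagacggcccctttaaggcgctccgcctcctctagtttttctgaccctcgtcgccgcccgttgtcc
Rbbp5, chr1:132477117-132477366, plus strand: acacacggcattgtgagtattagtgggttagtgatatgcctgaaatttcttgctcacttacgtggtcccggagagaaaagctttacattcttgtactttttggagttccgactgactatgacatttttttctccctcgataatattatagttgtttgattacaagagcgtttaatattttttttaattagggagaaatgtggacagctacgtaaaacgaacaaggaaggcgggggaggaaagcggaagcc
Dpy30 has 4 annotated starts, whose windows held 41, 224, 250 and 0 bases of the PSME3 peak, and the one printed shows the peak's edge. Of the 250 bases, 162 of Kmt2a and 224 of Dpy30 lay inside the PSME3 peak, and all 4 runs lay inside a pooled H3K4me3 peak. G and C made up 76.8% of the Kmt2a run, 68.0% of the Dpy30 run, 54.4% of the Wdr5 run and 40.0% of the Rbbp5 run. CpG dinucleotides numbered 29, 28, 12 and 10 in the same order, with a median of 6 over all 32851 RefSeq promoter windows, 17 over those with a pooled H3K4me3 peak and 19 over those with a pooled PSME3 peak. Kmt2a and Dpy30 were above the latter medians and Wdr5 and Rbbp5 below them.

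High G and C content was also found in runs outside the pooled PSME3 peaks. The Kmt2c run held 91.6% G and C and 48 CpG dinucleotides, and the Setd1a run held 70.4% and 25, and neither overlapped a pooled PSME3 peak, although Kmt2c had a peak 291 bp before its start in replicate 3. The Kmt2d run, 67.6% G and C, lay outside the peak that is 836 bp before its start. Windows were given for 7 of the 10 genes: Kmt2b, Setd1b and Ash2l were not among them. Over all promoter windows the median was 52.4% G and C. It was 61.2% over the 13288 that overlapped a pooled H3K4me3 peak and 64.0% over the 3174 that overlapped a pooled PSME3 peak. The letters GGGCGG, the core of the GC box to which Sp1 binds, were present on either strand in the runs of Kmt2a, Kmt2c, Kmt2d and Wdr5, and in 32.7% of all windows, 61.5% of windows with H3K4me3 and 74.4% of windows with PSME3. CCAAT was found in none of the runs but that of the distal Dpy30 start, against 33.8% of all windows, 34.9% of those with H3K4me3 and 42.7% of those with PSME3. CCGGAAG, the core letters bound by ETS factors, and TATAAA were in no run of these genes. CCGGAAG was in 6.91% of all windows, 13.8% of those with H3K4me3 and 14.5% of those with PSME3, and TATAAA in 12.4%, 5.73% and 3.75%.

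Kmt2a, the founding member of the mammalian trithorax enzymes, had the widest of the PSME3 peaks. The pooled peak (chr9:44881378-44882720) was 1343 bp wide with a fold enrichment of 3.08 over background and a q-value of 0.0023. It lay 26 bp outside the gene span and 89 bp before the annotated start, within the span of the lncRNA Gm39326. Replicate 2 had a peak there of 4.08-fold (q = 0.0243) and replicate 3 had 1 of 3.62-fold (q = 0.00692), whereas replicate 1 had its nearest PSME3 peak 79649 bp away. Of the 10 genes, Kmt2a alone had a PSME3 peak at its own start in more than 1 replicate list.

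Kmt2d, known for enhancer monomethylation, had 2 pooled PSME3 peaks, which stood for different places. The first (chr15:98872041-98872640) was 600 bp wide and 3.03-fold enriched (q = 0.00104), and lay inside the gene, 836 bp before the annotated start and 1437 bp from the edge of the span. Of the replicates, only replicate 3 had this peak, at 3.93-fold. The other (chr15:98830833-98831426) was 2.77-fold enriched (q = 0.00544) and lay 243 bp beyond the far end of Kmt2d, inside the neighbouring gene Prkag1, 82 bp from the annotated start of Prkag1, a regulatory subunit of AMP-activated kinase. Replicates 2 and 3 both had it, at 4.03-fold and 3.11-fold. The count of Kmt2d among genes with PSME3 in 2 replicates therefore rested on the Prkag1 peak. In all, 2 of the 10 genes had a PSME3 peak in at least 2 replicate lists, against 4.27% of protein-coding genes. That share is over genes with or without H3K4me3 and was not computed for those that carry the mark. Leaving out peaks within 1 kb of the Prkag1 start left 1, Kmt2a.

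Kmt2b, the paralogue of Kmt2a, had a pooled PSME3 peak across the edge of its span (chr7:30588809-30589537), 729 bp wide and 2.86-fold enriched (q = 0.0121). Replicate 3 had it at 3.86-fold, and replicates 1 and 2 had their nearest PSME3 peaks 1398107 and 1398432 bp away. The peak was also within 1 kb of Zbtb32, a zinc-finger gene, of Gm32082 and of Mir3569. Kmt2c, the paralogue of Kmt2d, had a peak in replicate 3 alone, 3.47-fold enriched (q = 0.0106). It lay 219 bp outside the Kmt2c span and 65 bp from the start of the lncRNA 4831440E17Rik, which is transcribed the other way. The nearest pooled peak was 30845 bp from Kmt2c.

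Of the shared core, Ash2l and Dpy30 had PSME3 peaks and Wdr5 and Rbbp5 did not. Dpy30, the small subunit that docks on Ash2l, had a pooled peak of 309 bp (chr17:74316421-74316729) with 2.72-fold enrichment (q = 0.0201), over an annotated start that lies inside the gene span. Replicate 3 had it at 3.93-fold. Ash2l had a pooled peak of 796 bp (chr8:25840574-25841369) with 2.57-fold enrichment (q = 0.035), which was in no replicate list. The 6 pooled PSME3 peaks ranked between the 6.4th and the 66.6th percentile of fold enrichment among all 5812, whose median was 2.92. PSME3 enrichment at these genes was thus in the ordinary range of the list. Without replicate 3, the pooled peaks that overlapped a remaining replicate's peak marked 2 genes, Kmt2a and Kmt2d.

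Setd1b, an enzyme of bulk trimethylation, had no PSME3 peak within 1 kb of its span. A PSME3 peak found in every cycling replicate lay 2603 to 3827 bp away, inside the neighbouring gene Rhof. The pooled peak (chr5:123137817-123138844) lay 3196 bp from the Setd1b span, within Rhof and 5188 bp from the annotated start of Rhof. It was 4.7-fold enriched, at the 99.0th percentile of pooled PSME3 peaks (q = 1.32e-10). PSME3 peaks at this place were in all 3 cycling replicates, at 5.72-fold, 4.28-fold and 4.99-fold, and 3721, 3827 and 2603 bp from Setd1b. They were also in both frozen preparations at day 2, at 5.66-fold in the native and 5.78-fold in the cross-linked one, and in neither fresh preparation. The nearest day 2 PSME3 peak to any of the other 9 genes was 298408 bp away, at Setd1a. For the other genes without a pooled PSME3 peak, the nearest was farther: 31079 bp for Setd1a, 38993 bp for Wdr5 and 59475 bp for Rbbp5.

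**Figure D2:**
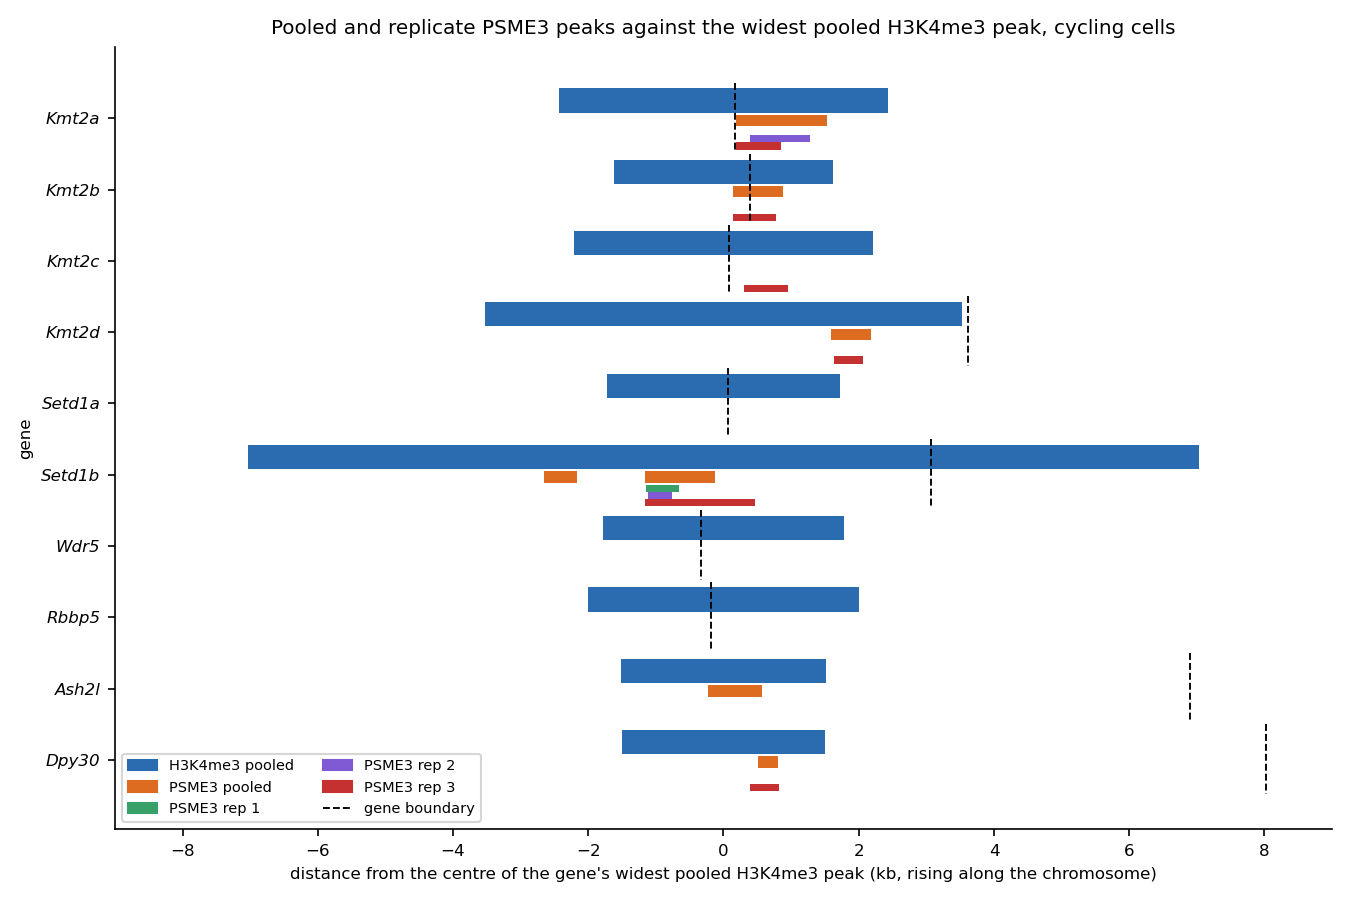
Bars show the position and width of pooled H3K4me3 peaks, pooled PSME3 peaks and PSME3 peaks of the 3 cycling replicates around each gene, by distance in kb from the centre of the gene's widest pooled H3K4me3 peak, with dashed lines at gene boundaries. Every PSME3 peak drawn lies within the span of the H3K4me3 bar of its gene, and the PSME3 peaks of all 3 replicates coincide in the row of Setd1b, where they are 2603 to 3827 bp outside the gene. The Prkag1 peak beside Kmt2d is outside the drawn range.

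The PSME3 peaks lay inside H3K4me3 domains. All 6 pooled PSME3 peaks of the 5 genes were fully inside a pooled H3K4me3 peak and overlapped an H3K4me3 peak in each of the 4 day 2 lists. They took up between 8.5% of the H3K4me3 peak, at the Kmt2d start, and 27.7%, at Kmt2a. Their centres were 126.5 to 1884 bp from the centre of that peak. The share of all pooled PSME3 peaks that lie inside H3K4me3 peaks was not computed. By the study's account, a large majority of PSME3 peaks were also positive for this mark. The overlap at these genes is therefore not shown to differ from that of other PSME3 peaks. PSME3 was more frequent where H3K4me3 was higher: among genes with H3K4me3 in all 7 libraries, 23.7% of the lowest 20% by pooled fold enrichment and 57.4% of the highest 20% had a pooled PSME3 peak. The highest 20% held Kmt2a, Kmt2b, Kmt2d, Wdr5 and Ash2l, and 4 of these 5 had a PSME3 peak, while of the other 5 genes only Dpy30 had 1. The 5 genes with a pooled PSME3 peak had a median H3K4me3 percentile of 90.3 in the pooled list and the 5 without it 68.0, with ranges of 68.9 to 94.4 and 57.0 to 83.0 that overlap. By the width of the H3K4me3 peak, the median percentile was 57.8 in the 5 genes with PSME3 and 74.4 in the 5 without. The latter include Setd1b, whose broad domain lay mostly in Rhof and held the PSME3 peak there. Over the genes with H3K4me3 in all 7 libraries the PSME3 share rose with width too, from 21.8% of the narrowest 20% to 55.5% of the widest 20%. Both antibodies were applied to the same kind of cells and these values are given as a description.

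H3K4me3 differed in height and shape among these genes. In the pooled list, the median of their highest fold enrichment was 17.7 and that of all protein-coding genes with a peak was 14.2, and the median of their widest peak was 3786.5 bp against 2920 bp. Setd1b had the broadest domain, between 11112 and 14084 bp over the 7 libraries, at or above the 99.6th percentile of widths in each library. The pooled domain (chr5:123131942-123146003) lay mostly outside the Setd1b span, which begins at 123142040, and inside Rhof, which ends at 123141808. It held the PSME3 peak described above, and its width is not that of Setd1b alone. Kmt2d followed with 5327 to 8844 bp and Kmt2a with 3919 to 4914 bp. The ranges of Setd1b and Kmt2d did not overlap each other or those of the remaining genes. Kmt2c, with 3655 to 4401 bp, overlapped Kmt2a, and Rbbp5, with 2136 to 4137 bp, overlapped both Kmt2c and Kmt2a. The other 6 genes had medians between 2376 bp, at Dpy30, and 3035 bp, at Setd1a, with ranges that overlapped throughout. By fold enrichment, Kmt2d lay between the 88.7th and 95.0th percentile in every library and Ash2l between the 85.4th and 97.8th. Setd1a was lowest, between the 31.0th and 58.4th percentile. Dpy30 ranged from the 36.4th to the 83.9th and Wdr5 from the 55.3rd to the 97.0th, so their place in the order was not settled by these libraries.

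**Figure D3:**
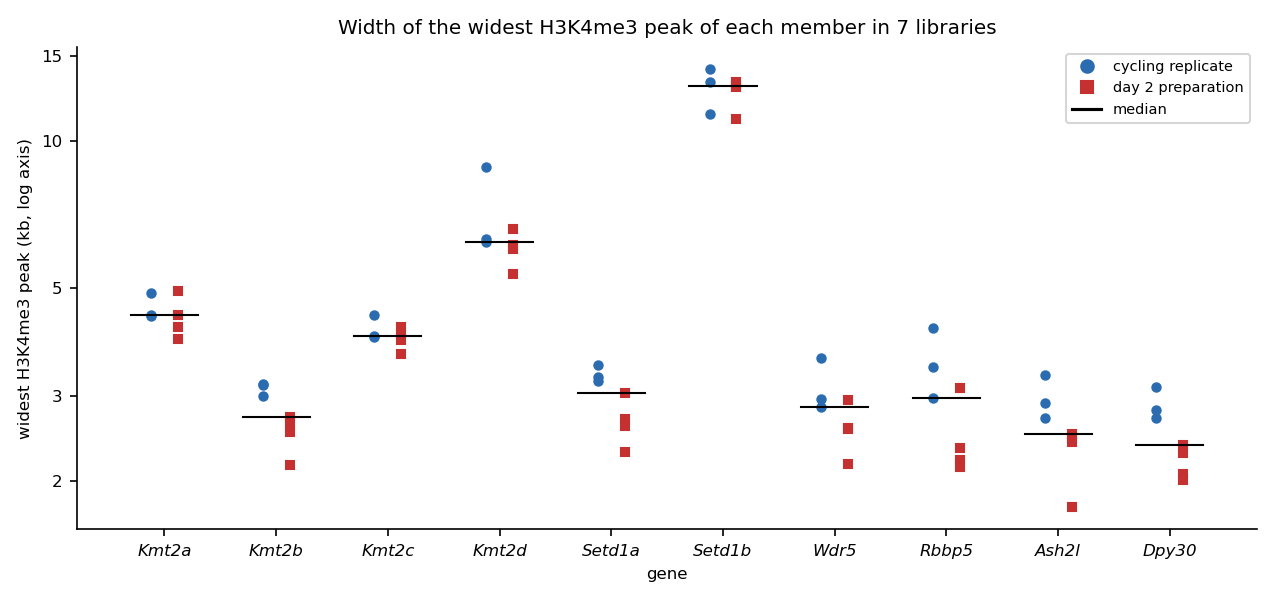
Points give the width in kb, on a log axis, of the widest H3K4me3 peak within 1 kb of each gene in the 3 cycling replicates and the 4 day 2 preparations, with the median of all 7 as a line. Setd1b stands above 11 kb in every library, Kmt2d above 5 kb, and the day 2 points lie below all cycling points for Kmt2b, Setd1a, Ash2l and Dpy30.

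At day 2, 0 of the 10 genes had a PSME3 peak in any of the 4 preparations. The lists were sparse at all genes: 0.0868% of protein-coding genes had a PSME3 peak in the fresh native preparation, 0.95% in the frozen native, 0.0776% in the fresh cross-linked and 0.402% in the frozen cross-linked one. With shares this low, 0 of 10 does not separate these genes from any others, and a loss of PSME3 between the stages cannot be told apart from the small day 2 lists.

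H3K4me3 at these genes did not pass the test for a change between the stages. The log2 of the highest fold enrichment was quantile-normalised over the 11642 genes with a peak in all 7 libraries and compared with limma, 4 day 2 preparations against 3 cycling replicates. At an adjusted p under 0.05, 0 of the 10 genes were called, against 8.12% of all genes tested (945, of which 477 were higher and 468 lower at day 2). The count over all genes fell to 563 without the fresh cross-linked and to 593 without the frozen cross-linked preparation, and was 62 with the frozen native preparation alone, with 0 of the 10 called in each of these fits. At an unadjusted p under 0.05 there were 2 of the 10, Kmt2a and Wdr5, and 2784 of all. The day 2 preparations differ in freezing and fixation, so the stage is compared over unlike preparations, and a stage difference cannot be told apart from any that freezing or fixation adds in the other 3.

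Kmt2a had normalised log2 values of 4.03, 3.99 and 4.08 in cycling cells and of 3.62, 3.82, 3.81 and 3.86 in the fresh native, frozen native, fresh cross-linked and frozen cross-linked preparations. Every day 2 value was below every cycling value, as for 10.8% of all genes tested, and no gene of the 10 had every day 2 value above, as 10.5% of all genes did. The difference was -0.25 with an SE of 0.105 and an adjusted p of 0.156 by limma. As deposited, the Kmt2a fold enrichment was 22.6, 12.8 and 31.6 in cycling cells and 6.91 to 18.98 at day 2, which overlap.

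Wdr5, the subunit that grips the enzymes and the histone tail, had normalised log2 values of 4.19, 3.73 and 4.27 in cycling cells and 3.65 to 3.86 at day 2. Replicates 1 and 3 were above all day 2 preparations, while replicate 2, the list that stood apart, lay within their range. The difference was -0.29 with an SE of 0.131 and a limma adjusted p of 0.183, and without cycling replicate 2 it was -0.47 with an adjusted p of 0.0374. The other 8 genes had differences between -0.05, at Kmt2d, and 0.21, at Dpy30, the latter with a limma adjusted p of 0.362. Dpy30 varied most within the cycling group, from 3.38 to 3.97, and overlapped the day 2 range of 3.82 to 3.99.

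**Figure D4:**
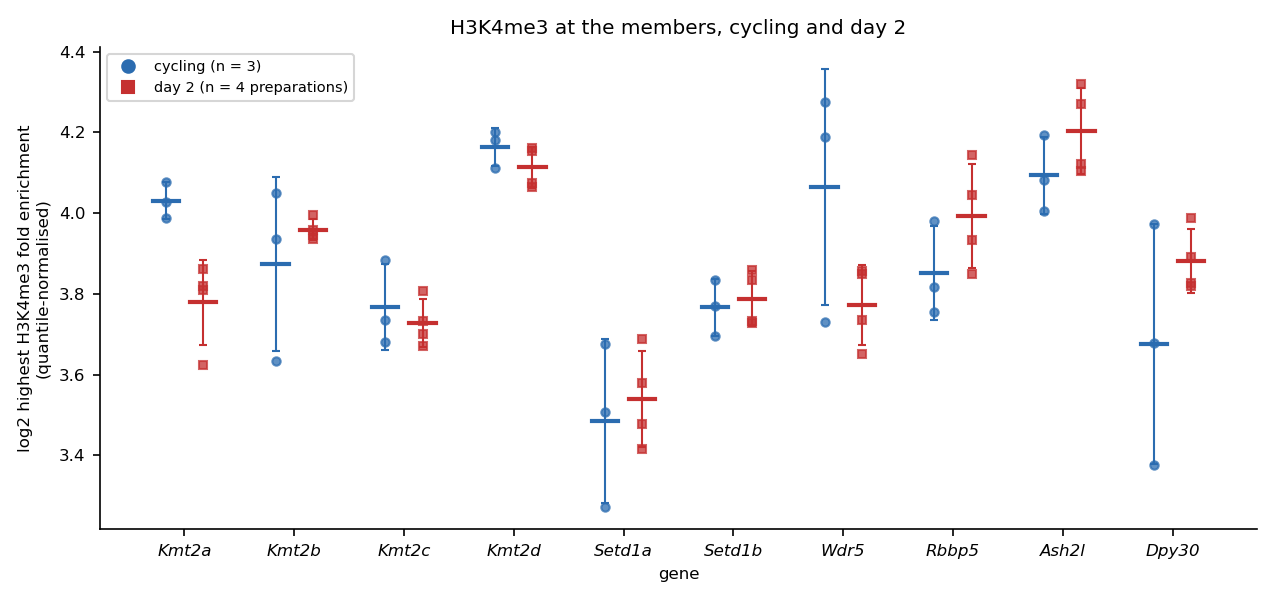
Each point is the quantile-normalised log2 of the highest H3K4me3 fold enrichment at a gene in 1 library, with the mean as a bar and the SD as an error bar, for 3 cycling replicates and 4 day 2 preparations. The groups are apart for Kmt2a alone, at 3.99 to 4.08 against 3.62 to 3.86, and overlap for the other 9 genes.

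H3K4me3 peaks were narrower at day 2 at some of these genes, as at many others. For Kmt2b, Setd1a, Ash2l and Dpy30 the widest peak was narrower in all 4 day 2 preparations than in all 3 cycling replicates. At Dpy30 it was 2694 to 3118 bp in cycling cells and 2014 to 2376 bp at day 2, and 2069 bp in the frozen native preparation. The count of 4 of 10 matched the 40.5% of all 11642 genes that showed this order. The reverse order was found at 0 of the 10 and at 0.988% of all genes. Widths were compared as deposited, and the depth of the lists is unknown. Only the frozen native preparation was handled as the cycling cells were, so a stage difference in width cannot be told apart from depth or handling.

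The other H3K4 pathway genes gave PSME3 shares on either side of these. Among further subunits, found in some of the complexes and not in the shared core, 3 of 12 had a pooled PSME3 peak and 0 of 12 had a peak in any replicate list. They were Wdr82, the Setd1 subunit that binds RNA polymerase II, at 3.16-fold, and the host-cell factors Hcfc1 and Hcfc2, at 2.71-fold and 2.58-fold. Men1, which links Kmt2a and Kmt2b to chromatin, and the Kmt2c and Kmt2d partners Kdm6a, Ncoa6, Paxip1 and Pagr1a had H3K4me3 and no pooled PSME3 peak. Of other SET-domain proteins linked to H3K4, 4 of 7 had a pooled peak: Prdm9, the meiotic methyltransferase, at 3.49-fold, Kmt2e, which binds H3K4me3, at 3.21-fold, Smyd3 at 2.81-fold and Ash1l, which acts chiefly on lysine 36, at 2.68-fold. Kmt2e was the only gene of that list with a PSME3 peak in all 3 replicates. Peaks of these comparison lists were not checked for neighbouring genes, so a peak counted for Prdm9 or another gene may lie at a neighbour. Smyd1, a muscle methyltransferase, was without H3K4me3 in the cycling lists and carried it in all 4 day 2 lists.

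Among H3K4 demethylases, of which the Kdm5 enzymes act on the trimethylated form and Kdm1a and Kdm1b on the lower forms, 2 of 5 had a pooled PSME3 peak, Kdm5a at 3.23-fold and Kdm1b at 2.52-fold. Of 12 proteins that read H3K4me3, 6 had 1, led by Ing1 at 3.78-fold, Ing2 at 3.77-fold, Sgf29 at 3.39-fold and Chd1, a nucleosome remodeller, at 3.1-fold. Ing2 had a PSME3 peak in all 3 cycling replicates and in 1 day 2 list, and was the only gene of these lists with a day 2 PSME3 peak. Of 14 writers of other H3 marks, 6 had a pooled peak, with Nsd3 at 3.42-fold, Suz12, a subunit of Polycomb complex PRC2, at 2.95-fold, Nsd2 at 2.91-fold and Nsd1 at 2.75-fold. Each of these lists is to be read against the 39.5% of genes with H3K4me3 in all libraries, and with 5 to 14 genes in a list none is marked out by its count.

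**Figure D5:**
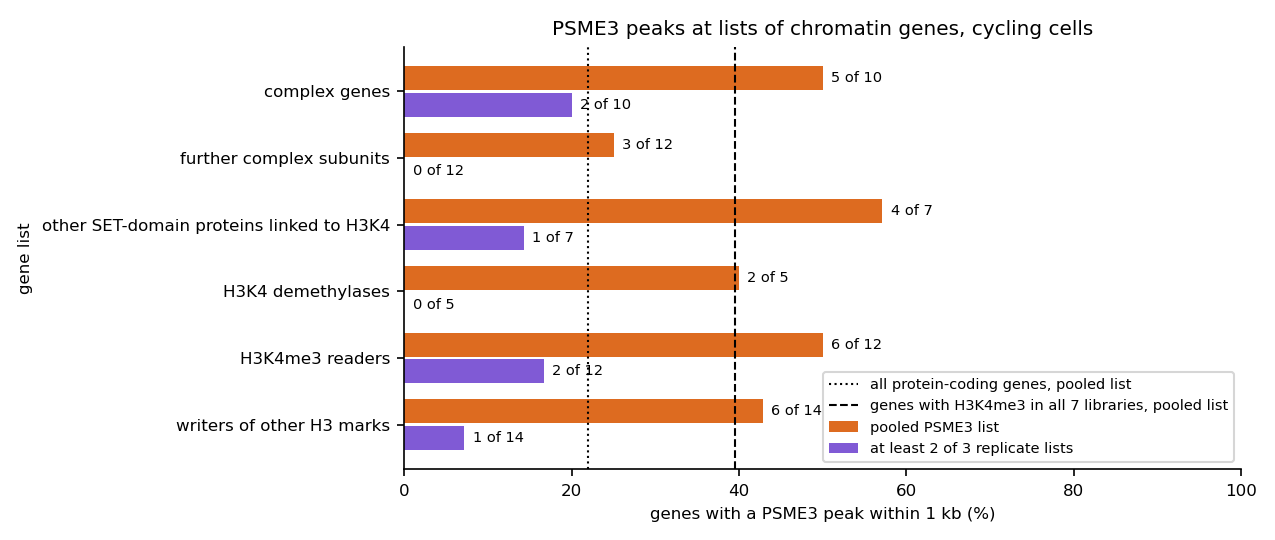
Bars give the percent of each gene list with a PSME3 peak within 1 kb in the pooled cycling list and in at least 2 of 3 replicate lists, with counts beside them, and the vertical lines give the pooled-list share among all protein-coding genes, 21.9%, and among those with H3K4me3 in all 7 libraries, 39.5%. The complex genes, at 5 of 10, stand above the dashed line by about 1 gene, and the further complex subunits, at 3 of 12, stand below it.

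The genes most like Kmt2a and Kmt2d in these lists were sought among genes with H3K4me3 in all 7 libraries and a PSME3 peak in the same libraries (276), by the mean absolute difference of H3K4me3 percentiles over the 7 libraries. Nearest to Kmt2a were Yipf1, at a mean difference of 6.6 percentile points, and Apeh, at 7.22. For Kmt2d the shared pattern includes the Prkag1 peak of replicate 2. Nearest to Kmt2d were Smchd1, a chromosome structural protein of the inactive X, at 2.99, and Col5a1, a fibrillar collagen, at 3.48.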

How the data were processed

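The series measured PSME3 and H3K4me3 by CUT&RUN in C2C12 cells. Per the labels and the methods, the authors used Trim Galore for trimming, Bowtie2 for alignment to mm10 and MACS2 for peak calling, and versions and options were not given in the sources used here. The deposited lists give for each peak a fold enrichment, the −log10 of its p-value and of its q-value, and a score made from the q-value. The columns were read by the layout of MACS2 broad peaks, in which fold enrichment is a ratio to a background; whether that background came from IgG is not given in the sources used here. All deposited peaks had q-values under 0.1. Pooled cycling lists are the authors' own calls. The files held no counts, so depth is unknown and no interval was computed.

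The 10 genes were matched by symbol to GRCm38 positions, and a gene had a peak when at least 1 bp lay within 1 kb of its span. For each gene and list the peak with the highest fold enrichment was kept. H3K4me3 was compared between stages in R 4.3.3 with limma 3.58.1 on quantile-normalised log2 values, adjusted by the Benjamini-Hochberg method over 11642 genes. P-values cover the spread between these libraries. The study describes the cycling replicates as biological, and the spread over day 2 preparations includes their handling. Counts were compared by exact permutation in Python 3.11.15 with numpy 2.4.6 and pandas 2.3.3. Replicate numbers were checked for pairing by the shares of peaks on 19 autosomes: same-numbered PSME3 and H3K4me3 libraries gave r of 0.54, 0.555 and 0.275, so the numbers were taken to pair them, although PSME3 replicate 1 with H3K4me3 replicate 3 gave 0.522 and PSME3 replicate 3 with H3K4me3 replicate 1 gave 0.266, so the shares set replicate 2 apart and do not tell replicates 1 and 3 from each other.

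Of each other gene list, up to 4 genes with the highest pooled PSME3 fold enrichment and up to 4 without a pooled H3K4me3 peak were to be named, with neighbours that share a peak and, for genes with PSME3 in at least 2 replicates, the 2 genes of most like pattern. Men1, the partners of Kmt2c and Kmt2d, and the PSME3 peak in Rhof near Setd1b were named after their values were seen. The comparison of widths was also chosen then. The genes and lists were chosen with earlier results of these data known. Alternatives were other q-values, distances, overlaps and starts, a merged union of replicates, the replicate block, other normalisations and leaving out each library.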

Additional observations from a re-analysis of the deposited data

How the results depend on the processing

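All 10 genes had H3K4me3 in every list, and 0 had PSME3 at day 2, under each q-value, distance and overlap tried, with 7 of 7 where only annotated starts within 1 kb were used. The pooled PSME3 count of 5 became 2 at q-values of at most 0.01 (Kmt2a and Kmt2d) and 3 of the 7 genes with a given start within 1 kb of that start. Keeping only pooled peaks that overlap a peak of a remaining replicate gave 2 to 4 when 1 replicate was left out, with 2 where it was replicate 3. The pooled list was not called again, and Ash2l drops out each time because its peak is in no replicate list. The count of 5 genes with PSME3 in any replicate became 3 within the gene span itself, 6 within 3 kb of it (adding Setd1b, from replicate 3), 2 in at least 2 lists and 0 in all 3, and leaving out 1 replicate gave 2 to 5. Of all 21900 protein-coding genes, 18354 had no PSME3 peak in any of the 7 PSME3 libraries. Of the 11642 with H3K4me3 in all 7 libraries, 8220 had none. Leaving out peaks at the start of Prkag1, an alternative chosen after seeing the data, kept the pooled and the any-replicate count at 5. Of the PSME3 peaks, 3 of 3 overlapped H3K4me3 at q-values of at most 0.01 in both lists. The share over all pooled PSME3 peaks at that threshold was not computed. With the replicate block, the antibody difference was 7.67 genes, the same as without it, and p stayed at the smallest value the design allows. The difference ranged from 6.5 to 9 without 1 replicate.

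For the stage comparison of H3K4me3, 0 to 1 of the genes passed when 1 library was left out, and the 1 was Wdr5, at -0.47 without cycling replicate 2. Over all genes, 945 calls became 263 with native day 2 preparations, 62 with the frozen native preparation alone, and 563 to 873 without 1 library, the lowest of them without the fresh cross-linked and, at 593, the frozen cross-linked preparation. Fewer libraries entered each of these fits, and the frozen native fit assumes that its lone day 2 library varies like the cycling ones. Small differences changed sign: Kmt2c to 0.0032, 0.04 and 0.02 with native preparations, the frozen native one and without cycling replicate 2, Setd1b to -0.04, -0.04, -0.01 and -0.0018 with native preparations, the frozen native one, without cycling replicate 3 and without the fresh cross-linked preparation, and, without cycling replicate 1, Kmt2b to -0.04 and Setd1a to -0.05. Over the fits without 1 library, Kmt2b ranged from -0.04 to 0.18, Kmt2c from -0.08 to 0.02, Setd1a from -0.05 to 0.15 and Setd1b from -0.01 to 0.06. In the fits of fold enrichment Kmt2a stayed between -0.31 and -0.2 and Wdr5 between -0.47 and -0.19, and on log2 of -log10 q the differences were -0.38 and -0.42. The depth of the lists is unknown, so a gene without a PSME3 peak may lie below what a list could detect.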
